A study of Homo sapiens with 9 samples.

Results

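LRP2, CUBN, AMN, DAB2, LRPAP1 and FOLR1 are 6 genes of the endocytic apparatus of visceral endoderm, and they were read out here in human extra-embryoids (hEEs). They were chosen by symbol, and all 6 were found among the 36601 genes of both count tables. hEEs are aggregates of human pluripotent stem cells that form an inner epiblast-like compartment and an outer layer of hypoblast-like cells. Those profiled were made from the embryonic stem cell line ESI017, grown in expanded potential medium. By the study's protocol, cells were aggregated in a differentiation medium, at first with a ROCK inhibitor, and moved to a second medium before D4. Aggregates of D6 had thus spent longer in the second medium. No further treatment or genetic change is stated for them. Aggregates with a visible inner and outer compartment were picked and dissociated on D4 or on D6. Each day gave 1 droplet library of transcript 3′ ends, from pooled aggregates of separate cultures of the same line. Library and day therefore cannot be told apart, no test was possible, and the 95% intervals given reflect counting error alone.

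Megalin (LRP2) and cubilin (CUBN) are giant receptors on the apical surface of absorptive epithelia. Cubilin has no membrane anchor of its own and reaches the surface with amnionless (AMN), with which it forms the cubam complex, while the adaptor DAB2 ties the tails of such receptors to clathrin coats and the chaperone RAP (LRPAP1) protects megalin from early ligand binding in the endoplasmic reticulum. FOLR1 is a glycolipid-anchored receptor that carries folate into cells. In rodents, visceral endoderm uses this apparatus to take up maternal proteins, lipoproteins and vitamins before a placenta is in place, and the yolk sac and the proximal tubule of the kidney use it later.

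Lineages were separated with 3 genes, none of which is among the 6. A cell with at least 5 unique molecular identifiers (UMIs) of POU5F1, at least 1 of SOX2 and at most 2 of FN1 was placed in the embryonic gate. A cell with at least 3 UMIs of FN1, none of SOX2 and at most 5 of POU5F1 was placed in the hypoblast gate. Levels are given as UMIs per 1000000 UMIs of all cells of a gate (UPM). At D4 the embryonic gate held 3716 cells and the hypoblast gate 4061, of 9151 kept cells. At D6 they held 5054 and 3567 of 10097. Median depth was 15157.5 and 11012 UMIs per cell at D4 and 14225.5 and 10902 at D6, so embryonic-gate cells were the deeper ones on both days. The hypoblast and visceral endoderm list has 14 markers. At D4, 11 of them reached 10 UPM in a gate, and all 11 were at least 2-fold higher in the hypoblast gate. At D6 all 14 reached it and were at least 2-fold higher there. Of all genes at 10 UPM or more, 11.1% at D4 and 13% at D6 were so. Below 10 UPM at D4, TTR and PDGFRA were higher in the hypoblast gate. AFP was lower there, at 0.397 against 4.60 UPM. Of the 10 epiblast markers, all at 10 UPM or more, 9 were at least 2-fold lower on both days. For all genes that share was 7.46% at D4 and 10.5% at D6. FN1, SOX2 and POU5F1 are in these lists and set the gates. None of the 12 trophoblast and 6 macrophage markers reached 10 UPM, with summed levels of 1.40 to 5.99 and 0.989 to 2.73 UPM over the gates. The libraries shared 40 cell barcodes.

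The 250 bases upstream of the RefSeq start (GRCh38.p14, the build of the count tables) are shown for 3 of the 4 genes that were higher at D6 than at D4, LRP2, CUBN and AMN, and for the adaptor DAB2, which was lower. LRPAP1 and FOLR1 are named only. LRP2 lies at chr2:169127109-169362534, CUBN at chr10:16823966-17129811, AMN at chr14:102922663-102930842, DAB2 at chr5:39371677-39424980, LRPAP1 at chr4:3503612-3532422 and FOLR1 at chr11:72189709-72196323. The windows are chr2:169362535-169362784, minus strand, for LRP2, chr10:17129812-17130061, minus strand, for CUBN, chr14:102922413-102922662, plus strand, for AMN, and chr5:39424981-39425230, minus strand, for DAB2. Each is given 5′ to 3′, and capitals mark matches on either strand to a GATA motif (AGATAA), an HNF1 core (GTTAAT) or a GC box (GGGCGG).
LRP2: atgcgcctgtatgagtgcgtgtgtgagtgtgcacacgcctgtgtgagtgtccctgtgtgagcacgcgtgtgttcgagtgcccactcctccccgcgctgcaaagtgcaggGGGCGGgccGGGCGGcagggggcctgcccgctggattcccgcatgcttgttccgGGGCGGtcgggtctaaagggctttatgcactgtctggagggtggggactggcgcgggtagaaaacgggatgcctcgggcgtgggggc
CUBN: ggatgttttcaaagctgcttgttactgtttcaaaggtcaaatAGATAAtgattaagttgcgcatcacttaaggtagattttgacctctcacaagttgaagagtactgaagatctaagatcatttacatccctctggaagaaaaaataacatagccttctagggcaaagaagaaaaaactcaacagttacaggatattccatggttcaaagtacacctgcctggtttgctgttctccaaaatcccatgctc
AMN: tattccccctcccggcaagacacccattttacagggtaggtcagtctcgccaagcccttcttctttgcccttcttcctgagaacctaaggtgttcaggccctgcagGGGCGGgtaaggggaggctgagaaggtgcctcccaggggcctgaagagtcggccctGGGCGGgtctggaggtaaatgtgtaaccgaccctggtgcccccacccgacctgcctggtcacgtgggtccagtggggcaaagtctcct
DAB2: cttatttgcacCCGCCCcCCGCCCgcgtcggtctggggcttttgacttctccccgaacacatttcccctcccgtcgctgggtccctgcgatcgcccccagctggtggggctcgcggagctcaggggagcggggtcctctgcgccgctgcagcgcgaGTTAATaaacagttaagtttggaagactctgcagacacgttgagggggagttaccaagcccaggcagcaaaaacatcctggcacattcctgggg
GC boxes were found in the windows of LRP2 (3 matches), AMN (2) and DAB2 (2), and 42.6% of all 35116 windows of this length hold at least 1. The CUBN window had no GC box and a GC content of 38%, against 66.8%, 61.6% and 62.4% in LRP2, AMN and DAB2. It held the only GATA match of the 4 windows, at bases −208 to −203 from the start, a motif present in 9.17% of all windows. DAB2 held the only HNF1 core, at −94 to −89, which 6.23% of windows contain. A TATA box (TATAAA, in 10.7% of windows) and a forkhead motif (TGTTTAC, in 2.98%) were searched too and were not found in the 4 windows. A match describes letters and is not evidence of binding.

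LRP2 was a hypoblast-gate transcript on both days and was about 4 times as abundant there at D6. It was counted in the hypoblast gate at 4.91 UPM (95% interval 4.30 to 5.58; 235 UMIs) at D4 and at 20.1 (18.7 to 21.5; 838 UMIs) at D6. In the embryonic gate it stood at 0.588 (0.407 to 0.822; 34 UMIs) and 0.762 (0.577 to 0.987; 57 UMIs). The hypoblast-gate levels were above both embryonic-gate levels with no overlap of intervals, and the embryonic-gate levels of the 2 days overlapped. The log2 ratio of hypoblast to embryonic gate was 3.06 (2.54 to 3.63) at D4 and 4.72 (4.33 to 5.13) at D6, and that of D6 to D4 within the hypoblast gate was 2.03 (1.82 to 2.24).

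CUBN had the highest gate ratio of the 6, although at D4 its interval overlapped those of LRP2 and FOLR1. Its hypoblast-gate level was 1.69 UPM (1.34 to 2.10; 81 UMIs) at D4 and 11.3 (10.3 to 12.3; 471 UMIs) at D6. Only 4 UMIs were counted in the embryonic gate at D4, or 0.0692 UPM (0.0189 to 0.177), and 11 at D6, or 0.147 (0.0734 to 0.263). The 4 levels stood in the order hypoblast D6, hypoblast D4 and then the overlapping embryonic-gate values. The log2 gate ratio was 4.61 (3.20 to 6.52) at D4 and 6.26 (5.41 to 7.27) at D6. D6 over D4 in the hypoblast gate gave 2.74 (2.39 to 3.09). That was above 99.7% of the 8848 genes at 10 UPM or more in this gate on at least 1 day. CUBN reached that minimum at D6 only, so the filter itself favours a high rank.

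AMN, the partner without which cubilin is not delivered to the surface, had a lower gate ratio than CUBN. Its level was 3.95 UPM (3.41 to 4.56; 189 UMIs) at D4 and 16.6 (15.4 to 17.9; 694 UMIs) at D6 in the hypoblast gate, and 1.54 (1.24 to 1.90; 89 UMIs) and 2.38 (2.04 to 2.75; 178 UMIs) in the embryonic gate. Here all 4 intervals were separate, in the order hypoblast D6, hypoblast D4, embryonic D6 and embryonic D4. The log2 gate ratio was 1.36 (0.99 to 1.74) at D4 and 2.80 (2.56 to 3.05) at D6, and D6 over D4 was 2.07 (1.84 to 2.31) in the hypoblast gate and 0.63 (0.25 to 1.01) in the embryonic gate.

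DAB2 took the other direction with time. In the hypoblast gate it was counted at 45.9 UPM (44.0 to 47.9; 2196 UMIs) at D4 and at 31.2 (29.5 to 32.9; 1302 UMIs) at D6. The embryonic gate held 7.23 (6.56 to 7.96; 418 UMIs) and 6.31 (5.75 to 6.90; 472 UMIs), intervals that overlap, with a log2 ratio of D6 to D4 of −0.20 (−0.39 to −0.00). The hypoblast-gate level was thus highest at D4 and stayed above the embryonic gate on both days. Its log2 gate ratio was 2.67 (2.51 to 2.82) at D4 and 2.31 (2.15 to 2.46) at D6, and D6 over D4 in the hypoblast gate was −0.56 (−0.66 to −0.46).

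LRPAP1 was found in both lineages. It stood at 152 UPM (149 to 156; 7293 UMIs) at D4 and 127 (124 to 131; 5314 UMIs) at D6 in the hypoblast gate, against 88.7 (86.2 to 91.1; 5124 UMIs) and 74.4 (72.4 to 76.3; 5564 UMIs) in the embryonic gate. The 4 intervals did not overlap, and D6 was the lower day in both gates, by log2 ratios of −0.26 (−0.31 to −0.21) and −0.25 (−0.31 to −0.20). The gate ratio was 0.78 (0.73 to 0.83) at D4 and 0.77 (0.72 to 0.83) at D6, the smallest of the 6 on both days.

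FOLR1 was counted at 33.3 UPM (31.7 to 35.0; 1592 UMIs) at D4 and 83.6 (80.9 to 86.5; 3494 UMIs) at D6 in the hypoblast gate. In the embryonic gate its levels were 3.79 (3.30 to 4.33; 219 UMIs) and 4.48 (4.01 to 4.98; 335 UMIs), whose intervals overlap. The gate ratio was 3.13 (2.93 to 3.35) at D4 and 4.22 (4.06 to 4.39) at D6, and D6 over D4 in the hypoblast gate was 1.33 (1.24 to 1.42). Kept cells outside both gates, 1374 at D4 and 1476 at D6, lay between the gates for every gene on both days; for LRP2 they held 2.15 and 7.0 UPM.

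**Figure D1:**
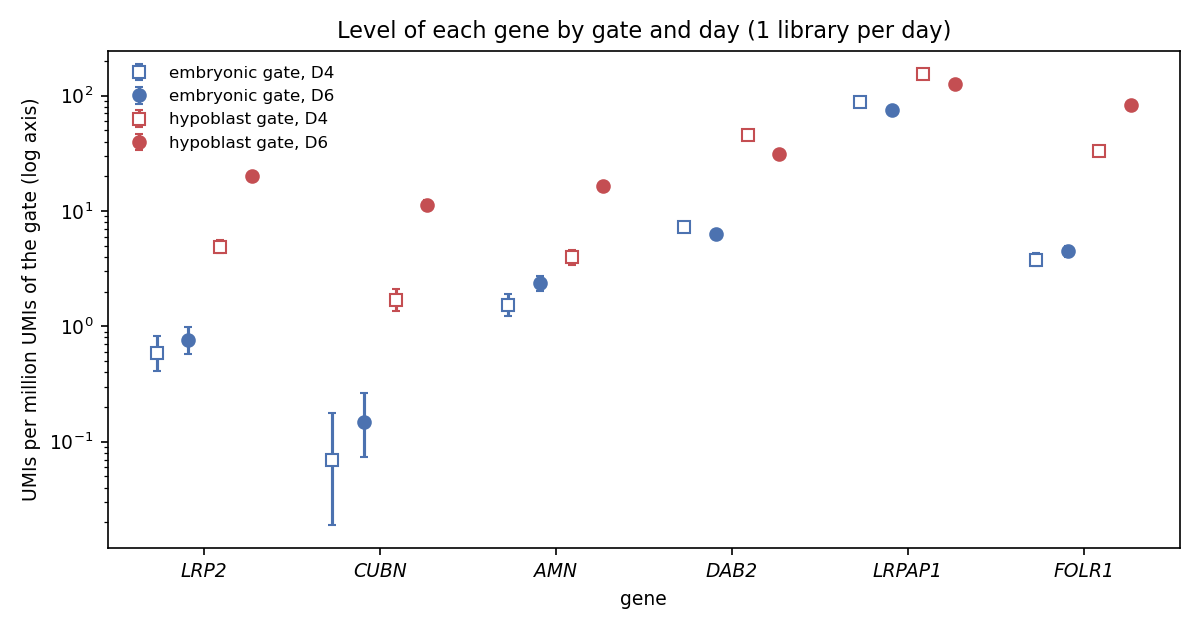
Level of each gene in UPM (log axis), by gate (colour) and day (open squares D4, filled circles D6); bars are exact 95% Poisson intervals and each point is 1 library. LRP2, CUBN, AMN and FOLR1 are highest in the hypoblast gate at D6, whereas DAB2 and LRPAP1 are highest there at D4. Heights are meant for comparison within a gene only.

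Read together, 5 of the 6 genes were at least 2-fold higher in the hypoblast gate on each day. Of all genes at 10 UPM or more in a gate, 11.1% were so at D4 and 13% at D6. At D4, LRP2, CUBN and AMN were below that minimum, and at a minimum of 1 UPM, which all 6 passed, the shares were 13.3% and 14.2%. LRP2, CUBN, AMN, DAB2 and FOLR1 reached 10 UPM in the hypoblast gate only, so the filter favours that gate. At 1 UPM this still held for LRP2 and CUBN. From D4 to D6 in the hypoblast gate, 4 of the 6 (LRP2, CUBN, AMN and FOLR1) were at least 2-fold higher, against 2.64% of genes at 10 UPM and 4.38% at 1. LRP2, CUBN and AMN reached 10 UPM at D6 only, so that filter favours a higher D6. All 6 passed 1 UPM in this gate on both days. None of the 6 was at least 2-fold lower, against 1.03%. In the embryonic gate, where 0.276% of genes at 10 UPM and 1.57% at 1 were at least 2-fold higher, CUBN passed that fold on 11 against 4 UMIs, with an interval from −0.67 to 3.19 that includes no difference. Over all genes the median log2 ratio lay between −0.04 and 0.03 in these 4 comparisons. Both day comparisons and both gate comparisons draw on the same 4 sums of cells and are not independent of each other.

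**Figure D2:**
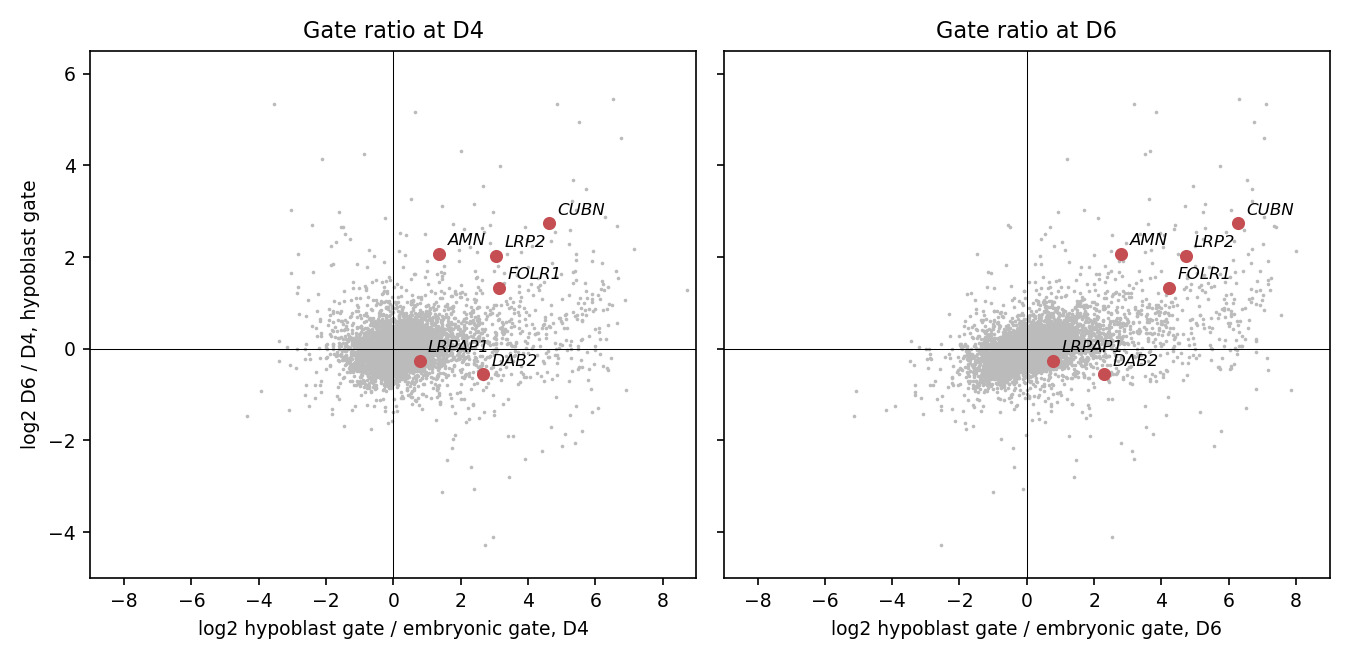
Log2 ratio of D6 to D4 in the hypoblast gate (vertical axis) against the log2 ratio of hypoblast to embryonic gate at D4 (left) and D6 (right). Grey points are genes at 10 UPM or more in the hypoblast gate on 1 of the days, and red points are the 6 genes. CUBN, LRP2, AMN and FOLR1 lie in the upper right of both panels, while DAB2 and LRPAP1 lie to the right of 0 and just below it on the vertical axis.

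The share of cells with a UMI followed the levels. In the hypoblast gate 4.78% of cells (4.14 to 5.48) had a UMI of LRP2 at D4 and 16.3% (15.1 to 17.5) at D6. For CUBN the shares were 1.82% and 10.5%, for AMN 4.48% and 15%, and for FOLR1 30.4% and 56.7%. DAB2 was found in 32.5% and 23.9% of cells and LRPAP1 in 79.5% and 74.0%. With every cell thinned to the lowest depth kept, the order of the days was the same for each gene. The thinned shares for D4 and D6 were 1.38% and 4.91% for LRP2, 0.419% and 3.78% for CUBN, 1.5% and 5.83% for AMN, 13.3% and 9.22% for DAB2, 39.4% and 35.0% for LRPAP1, and 11.0% and 24.3% for FOLR1. No cell was left out by thinning.

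In the embryonic gate, thinned shares at D4 and D6 were 0.215% and 0.257% for LRP2, 0.538% and 0.851% for AMN and 2.02% and 2.28% for DAB2. They were 25.6% and 21.5% for LRPAP1 and 1.75% and 1.56% for FOLR1. For CUBN, 0 of 3716 thinned cells had a UMI at D4, which at 95% (Clopper-Pearson) allows a share of up to 0.0992%, and 0.0594% had one at D6. Without thinning, the embryonic-gate shares were 0.861% and 1.09% for LRP2, 0.108% and 0.218% for CUBN, 2.34% and 3.42% for AMN, 10.2% and 8.73% for DAB2, 71.0% and 63.8% for LRPAP1 and 5.73% and 6.17% for FOLR1. Every thinned hypoblast-gate share was above the embryonic-gate share of the same day, with no overlap of intervals.

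**Figure D3:**
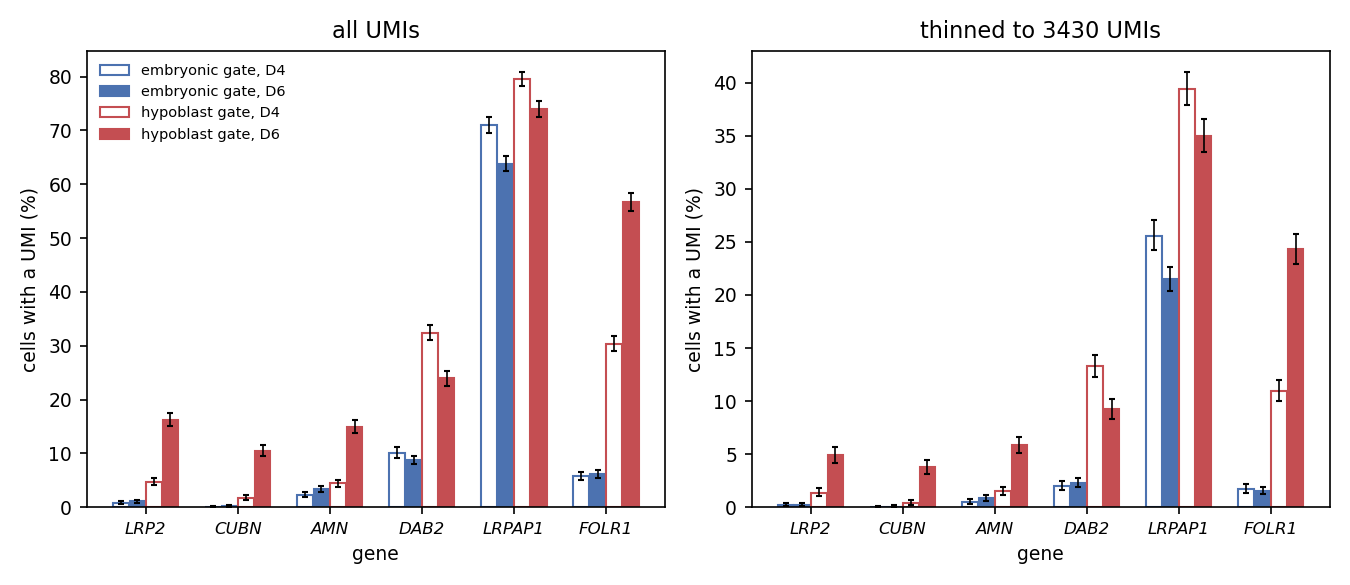
Share of cells with at least 1 UMI of each gene, with all UMIs (left) and with each cell thinned to the lowest depth kept (right); bars start at 0 and whiskers are exact 95% binomial intervals. The share of hypoblast-gate cells is higher at D6 for LRP2, CUBN, AMN and FOLR1 and lower for DAB2 and LRPAP1, with and without thinning.

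Free RNA gives all droplets some UMIs of abundant transcripts, and APOA1, an apolipoprotein gene of the hypoblast marker list, was taken as a first yardstick. Its embryonic-gate level was 1.28% of its hypoblast-gate level at D4 and 0.752% at D6. CUBN stood at 4.09% (1.09 to 10.9) at D4 and 1.30% (0.646 to 2.35) at D6 on 4 and 11 UMIs, and both intervals include the APOA1 value of the day. LRP2 stood at 12% (8.10 to 17.2) and 3.80% (2.85 to 4.97), FOLR1 at 11.4% and 5.35%, DAB2 at 15.8% and 20.2%, AMN at 39.0% (29.9 to 50.4) and 14.3% (12.1 to 16.9) and LRPAP1 at 58.1% and 58.4%, all above the APOA1 value. Other genes of the hypoblast marker list varied. APOA2 stood near APOA1, at 1.35% and 0.868%, as did TTR, at 1.66% and 0.392%. SERPINE2 stood higher, at 17.4% and 3.79%, as did COL4A1, at 10.5% and 6.74%. AFP was higher in the embryonic gate at D4 and stood at 11.0% at D6. LRP2 and FOLR1 on both days and DAB2 at D4 lay between SERPINE2 and COL4A1, and above APOA2 and TTR. The part of free RNA in their embryonic-gate UMIs was not tested.

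Within the hypoblast gate, the receptors varied with APOA1, the main apolipoprotein of high-density lipoprotein, which is secreted by visceral endoderm. Cells of each day were ranked by the share of APOA1 among their UMIs and cut into 4 equal groups. LRP2 stood at 1.95 UPM in the lowest group and 9.98 in the highest at D4, and at 6.21 and 39.4 at D6. Its log2 ratio of the highest to the lowest group was 2.35 (1.69 to 3.08) at D4 and 2.66 (2.28 to 3.07) at D6. CUBN stood at 0.444 and 3.57 at D4 and at 2.91 and 25.7 at D6, with ratios of 3.01 (1.68 to 4.70) and 3.14 (2.59 to 3.75). These 2 receptors were thus steeply graded on both days.

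AMN differed between the APOA1 groups beyond counting error at D6 and not at D4. It stood at 3.55 and 3.98 UPM in the lowest and highest APOA1 groups at D4, with a log2 ratio of 0.16 (−0.47 to 0.80), and at 9.82 and 28.5 at D6, with a ratio of 1.54 (1.20 to 1.88). FOLR1 had nearly the same ratio on both days, 0.78 (0.57 to 0.99) and 0.79 (0.64 to 0.93). LRPAP1 was nearly flat, with 0.22 (0.12 to 0.31) and 0.08 (−0.03 to 0.20).

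DAB2 changed its pattern between the libraries. At D4 it was lower where APOA1 was higher, with 60.5, 47.2, 38.5 and 38.7 UPM from the lowest to the highest group and a log2 ratio of −0.64 (−0.81 to −0.47). At D6 the 4 groups held 30.6, 23.9, 26.5 and 44.2, highest where APOA1 was highest, with a ratio of 0.53 (0.32 to 0.75). In the highest APOA1 group, DAB2 stood at 44.2 (40.2 to 48.5) at D6 and 38.7 (35.3 to 42.4) at D4, which overlap. Each of the other 3 groups stood lower at D6 than at D4. The groups were cut within each day, and APOA1 in the gate was 1621 UPM at D4 and 11926 at D6. The same group therefore does not hold the same APOA1 level on both days. The groups had median depths of 10629 to 11284 UMIs at D4 and 10418 to 11280 at D6.

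DAB2 also followed POU5F1, the pluripotency factor, of which the gate allows up to 5 UMIs. In cells with 0, 1 to 2 and 3 to 5 UMIs of POU5F1, DAB2 stood at 33.3, 52.6 and 73.7 UPM at D4 and at 26.0, 37.7 and 77.8 at D6. LRP2 ran the other way at D4, with 6.39, 3.92 and 2.36, as did CUBN, with 2.26, 1.38 and 0.506, on 52, 26 and 3 UMIs. At D6, LRP2 held 20.9, 18.7 and 15.1 and CUBN 11.8, 10.5 and 6.80, and their intervals overlap between the first and last group. AMN, LRPAP1 and FOLR1 differed little, with log2 ratios of the first to the last group between −0.13 and 0.29 over both days. Cells with no POU5F1 UMI made up 2055 of 4061 hypoblast-gate cells at D4 and 2382 of 3567 at D6, and among them DAB2 was still lower at D6, by a log2 ratio of −0.36 (−0.51 to −0.21).

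**Figure D4:**
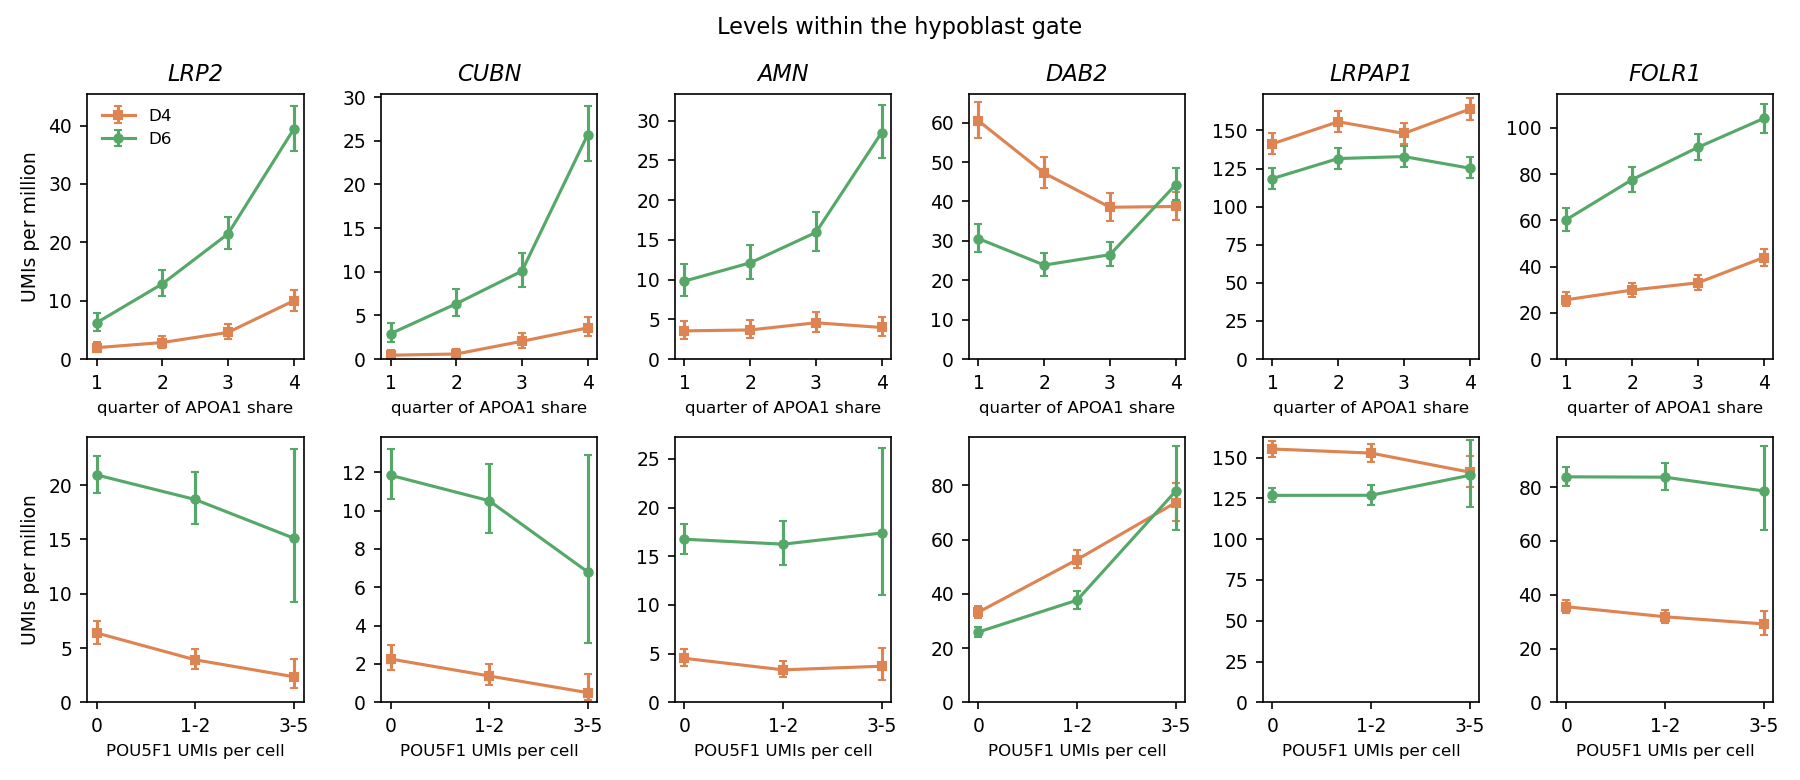
UPM in the hypoblast gate by group of APOA1 share (top row, lowest to highest) and by number of POU5F1 UMIs per cell (bottom row), at D4 (orange squares) and D6 (green circles), 1 panel per gene with axes from 0; bars are exact 95% Poisson intervals. LRP2 and CUBN climb with APOA1 on both days, AMN at D6, and DAB2 climbs with POU5F1 on both days.

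Other marker genes split the hypoblast gate further. Cells rich in CER1, a marker of the anterior signalling endoderm, numbered 427 at D4 and 88 at D6. They held less DAB2 than the other cells, with 26.7 against 48.5 UPM at D4 and 8.69 against 31.9 at D6, or log2 ratios of −0.86 (−1.11 to −0.62) and −1.88 (−2.83 to −1.07). CUBN was lower in them at D6, with 2.17 (3 UMIs) against 11.6, and LRP2 was higher in them at D4, with 7.55 against 4.56, but not at D6, with 13.0 against 20.3. FOLR1 was lower in them on both days, by −0.43 (−0.69 to −0.18) and −0.53 (−0.86 to −0.21). Median depth was 12283 UMIs in CER1-rich and 10892.5 in other cells at D4 and 15131.5 and 10857 at D6.

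Cells with ISL1, a homeobox gene used as an amnion marker, showed the reverse for DAB2. The 957 ISL1-positive cells of D4 held 59.4 UPM against 41.4 in the others, and the 203 of D6 held 51.4 against 29.9. LRP2 was lower in ISL1-positive cells, with 2.59 against 5.69 at D4 and 14.3 against 20.4 at D6. For CUBN and AMN the ratios included no difference on both days. Among the 143 cells of D4 with FGFBP3, DAB2 stood at 67.9 against 45.0.

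Cells with AFP, the fetal albumin of yolk sac endoderm, numbered 83 in the hypoblast gate at D6 and 19, too few to describe, at D4. AFP was not a hypoblast-gate transcript at D4, when the embryonic gate held 266 of its UMIs and the hypoblast gate 19, whereas at D6 they held 132 and 672. In UPM, LRP2 stood at 56.8 in them against 19.2 in the other cells, CUBN at 38.9 against 10.6, AMN at 51.9 against 15.7 and DAB2 at 78.8 against 30.0. The log2 ratios were 1.57 (1.15 to 1.96), 1.88 (1.36 to 2.35), 1.72 (1.28 to 2.13) and 1.39 (1.05 to 1.72). FOLR1 was not separated, with 92.7 against 83.4, and LRPAP1 was lower, with 103 against 128. Of the 83 cells, 33 had LRP2, 26 CUBN, 29 AMN and 45 DAB2, and no cell held more than 5, 4, 5 and 7 UMIs of these genes. The 8 cells with the most UMIs of a gene held 45.6% of those of LRP2, 53.8% of CUBN, 50% of AMN and 34.2% of DAB2. Median depth was 11362 UMIs in AFP-positive and 10887.5 in other cells.

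Cells with APOA4 or LCN15 numbered 976 at D4 and 2580 at D6. CUBN was the gene with the largest ratio in them at D6, with 13.5 against 5.45 UPM and a log2 ratio of 1.31 (0.92 to 1.71). AMN stood at 18.5 against 11.6, LRP2 at 21.7 against 15.7 and FOLR1 at 88.8 against 70.1. Cells with NPPB, 489 at D6, held more LRP2, at 27.9 against 18.6, and less CUBN, at 8.30 against 11.8. At D4 the log2 ratios of NPPB-positive to other cells had the opposite signs, −0.38 (−1.03 to 0.21) for LRP2 and 0.36 (−0.58 to 1.21) for CUBN, with intervals that include no difference. The 2 receptors also differed by depth at D6: in the shallowest and deepest of 3 equal groups of cells (medians of 8289 and 15197 UMIs), LRP2 stood at 11.2 and 26.4 UPM, CUBN at 13.3 and 10.0 and AMN at 19.3 and 13.3. The part of depth in the comparisons above was not tested.

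Receptor and adaptor transcripts were found in the same cells more often at D6 than the product of their shares gives. With thinned cells, 15 of 3567 cells had both LRP2 and CUBN, where 6.62 were expected, a ratio of 2.26 (1.27 to 3.74). CUBN and AMN were together in 16 cells, a ratio of 2.03 (1.16 to 3.30). CUBN with DAB2 gave 1.69 (1.04 to 2.58), LRP2 with DAB2 1.61 (1.05 to 2.36) and AMN with DAB2 1.62 (1.10 to 2.29). These 5 of 15 pairs had intervals above 1, and all 5 join LRP2, CUBN, AMN and DAB2. These counts come from 1 random draw of UMIs. Averaged exactly over all ways of thinning, the 5 ratios were 2.14, 1.71, 1.68, 1.67 and 1.38, without intervals. The exact average gave 12.6 cells for CUBN with AMN and 25.7 for AMN with DAB2, against 16 and 31 drawn. It gave 16.1 for LRP2 with CUBN and 31.75 for LRP2 with DAB2, against 15 and 26. With stricter gates, LRP2 with DAB2 gave 1.43 (0.803 to 2.37) and AMN with DAB2 1.29 (0.666 to 2.25), intervals that include 1. In the main draw, the sixth pair among these 4 genes, LRP2 with AMN, gave 1.18 (0.608 to 2.05). No pair with LRPAP1 or FOLR1 had an interval that left out 1 in thinned cells.

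At D4, thinned cells were too few for most pairs. LRP2 and CUBN met in 2 cells, where 0.234 were expected. DAB2 was with LRP2 in 8 cells, a ratio of 1.07 (0.464 to 2.12), and with AMN in 5, a ratio of 0.616 (0.200 to 1.44). With all UMIs, LRP2 and CUBN met in 10 cells at D4, a ratio of 2.83 (1.36 to 5.2), and in 115 at D6, a ratio of 1.89 (1.56 to 2.26), whereas LRP2 with DAB2 gave 0.985 (0.755 to 1.26) at D4 and 1.44 (1.25 to 1.65) at D6. CUBN with DAB2 gave 0.999 (0.640 to 1.49) at D4 and 1.59 (1.34 to 1.88) at D6. For both pairs with DAB2 the intervals of the 2 days overlap. With all UMIs, pairs with FOLR1 also passed 1. LRP2 with FOLR1 gave 1.29 (1.02 to 1.61) at D4 and 1.15 (1.04 to 1.27) at D6. CUBN with FOLR1 gave 1.47 (1.01 to 2.06) at D4 and 1.11 (0.972 to 1.26) at D6. Unthinned ratios also carry the spread in depth between cells.

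**Figure D5:**
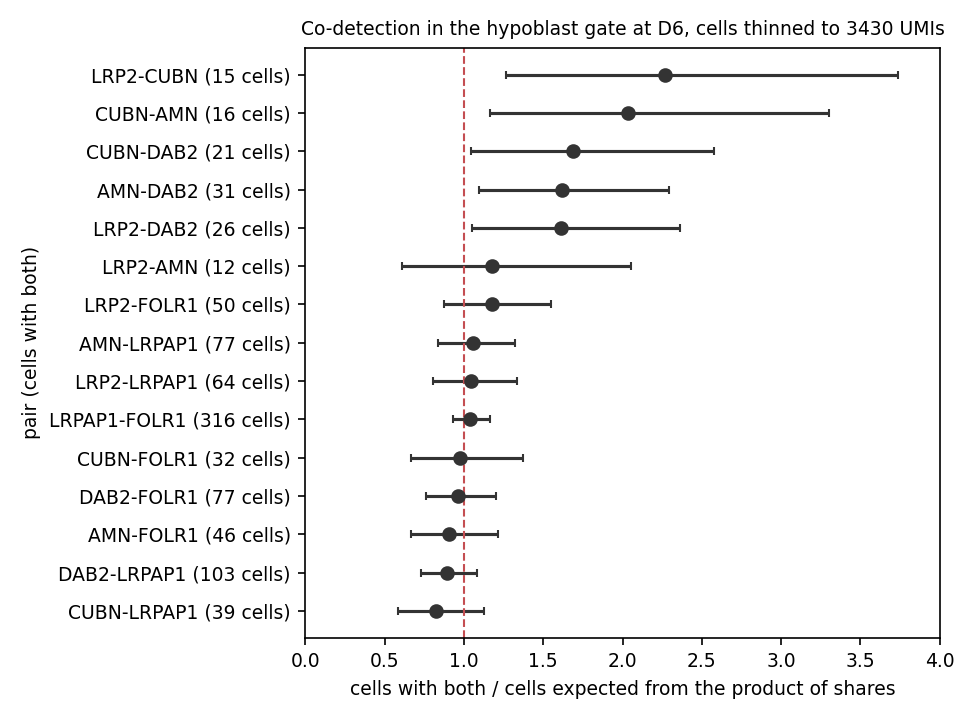
Number of D6 hypoblast-gate cells with UMIs of both genes of a pair, divided by the number expected from the product of their shares, in cells thinned to the lowest depth kept; bars are exact 95% Poisson intervals on the observed number, and the dashed line marks 1. In this 1 random draw of UMIs, the 5 pairs whose bars lie above 1 join LRP2, CUBN, AMN and DAB2.

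Counted per cell with all UMIs, the median number of the 6 genes found was 1 at D4 and 2 at D6 in the hypoblast gate. At least 1 of LRP2, CUBN and AMN was found in 10.5% of cells (9.61 to 11.5) at D4 and 34.0% (32.4 to 35.6) at D6, and after thinning in 3.23% and 13.4%. No cell of D4 and 10 cells of D6 had all 6. LRP2, CUBN, AMN and DAB2 occurred together in 1 cell at D4 and 19 cells at D6. Compared with the other 3548 cells, these 19 held 2.34-fold more APOA1 in UPM, 2.44-fold more RSPO3, a secreted enhancer of WNT signalling, and 3.12-fold (HNF4A log2 ratio 1.64, 1.12 to 2.12) more of the hepatic nuclear receptor HNF4A. FOXA2 stood at 84.9 against 145 UPM, and GATA6 at 230 (175 to 299) against 298. AFP was found in 4 of the 19, which held 80 AFP UMIs between them. The cells were picked by the 4 genes after the pair counts had been seen, and their median depth was 11375 UMIs against 10898. LRP2 and CUBN followed APOA1 and RSPO3 over the same hypoblast-gate cells. The higher APOA1 and RSPO3 are therefore not independent of how the cells were picked.

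Over single cells of the hypoblast gate, LRP2 followed RSPO3 best of 10334 genes, with Pearson's r of 0.23 in 4061 cells of D4 and 0.26 in 3567 cells of D6. The next were IGFBP5 (0.16 and 0.17) and APOA1 (0.15 and 0.22). CUBN followed LGALS2 (0.14 and 0.19), RSPO3 (0.14 and 0.19) and the brush border peptidase DPP4 (0.12 and 0.14). DAB2 followed CRABP1, ID1 and the gate gene POU5F1, with r between 0.13 and 0.17, and FOLR1 followed APOA1, APOE and SPINT2, with r between 0.11 and 0.15. For AMN (RABEP2, UNC93A and SFXN4) and LRPAP1 (CKB, CD63 and BAX), no r was above 0.12. Cells share a library and a range of depths, and r is held down by the sparse counts.

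By the 3 log2 ratios between gates and days, the genes nearest to LRP2 among 8847 were DGKK, CYP4X1 and APLNR. Those nearest to CUBN were FMO5, the prothrombin gene F2 and LCN15, with F2 at 1.92 UPM in the hypoblast gate at D4 and 11.3 at D6. AMN had SSTR2, AMOT and GPM6A beside it, FOLR1 the protease TMPRSS2 (18.1 and 43.9), APOC1 and NRG1, DAB2 PHACTR2, H2AFY2 and ADAMTS12, and LRPAP1 FBXW5, ETV5 and YIPF3. The nearest of all pairs was LRPAP1 with FBXW5 at a distance of 0.0692, and that of LRP2 with DGKK was 0.361.

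The rest of the endocytic route was read from fixed lists, in which a gene is called higher or lower when its counting interval leaves out 0. By that rule 42.9% of all genes at D4 and 42.4% at D6 were higher in the hypoblast gate and 43.3% and 46.2% lower, and from D4 to D6 in the hypoblast gate 33.4% were higher and 34.3% lower. The list of the apical surface and microvilli has 14 genes, of which 6 reached 10 UPM in a gate. PDZK1, VIL1 and DPP4 reached it through the hypoblast gate only, so the filter favours that gate. Of the 6, 5 were at least 2-fold higher there on both days, against 11.1% and 13% of all genes. The median log2 ratio of the 6 was 1.75 at D4 and 2.61 at D6. From D4 to D6 all 6 were higher in the hypoblast gate, 3 at least 2-fold, against 2.64% of all genes. Below 10 UPM, ANPEP held 4.83 at D4 and 4.67 at D6 and USH1C 0.105 and 1.84. SLC9A3, CDHR2, CDHR5, MYO7B, MYO1A and CLIC5 had 0 to 7 UMIs each in that gate. The scaffold PDZK1, which binds tails of apical transporters, stood at 21.8 UPM at D4 and 49.3 at D6, DPP4 at 11.7 and 68.9, and the microvillar actin bundler VIL1 at 20.9 and 44.4.

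Lysosomal genes were higher in the hypoblast gate in 15 of 18 at D4, 5 at least 2-fold, and in 14 of 17 at D6, 6 at least 2-fold, with median log2 ratios of 0.74 and 0.69. The cholesterol carrier NPC2 led on both days, at 761 UPM against 140 at D4 and 838 against 160 at D6, and the cathepsins CTSL and CTSZ followed. In contrast to the receptors, lysosomal genes did not differ in 1 direction between the days, with 7 higher and 7 lower of 17 and a median of 0.05. Endosome and recycling genes were higher in 11 and lower in 4 of 16 at D4, and higher in 13 and lower in 2 at D6, with EEA1, an early endosome tether, at 82.1 against 23.4 and 120 against 29.1 UPM and RAB38 lower, at 6.10 against 30.9 and 3.42 against 33.2. From D4 to D6 in the hypoblast gate, 8 of 15 were higher and 2 lower, led by RAB11FIP1, EEA1 and MYO6, with log2 ratios of 0.91, 0.55 and 0.47.

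Genes of clathrin and the AP2 coat differed less. At D4, 6 of 10 were higher in the hypoblast gate and 2 lower, and at D6 7 and 1, with medians of 0.24 and 0.10. CLTB was the largest at D4, at 138 against 60.1 UPM, and PICALM at D6, at 49.7 against 25.8. From D4 to D6, 1 was higher and 5 lower. Of the other endocytic adaptors, 5 of 8 were higher and 1 lower at D4 and 5 of 9 higher and 2 lower at D6, among them DAB1, a relative of DAB2, with log2 ratios of 1.09 and 1.08.

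The relatives of megalin at 10 UPM or more did not share its pattern. Of the LDL receptor family without LRP2, 3 of 9 were higher and 6 lower in the hypoblast gate at D4 and 4 of 10 higher and 6 lower at D6. LRP10 was higher on both days, by log2 ratios of 1.55 and 1.68, and LRP11 lower, at 0.397 against 10.2 and 0.527 against 14.4 UPM. Between the days in the hypoblast gate none of 9 differed 2-fold, the largest being SORL1 at −0.52, VLDLR at 0.49 and LRP12 at 0.45. Below 10 UPM at D4, LRP1B was higher in the hypoblast gate, by 3.82 (2.15 to 6.16) on 35 against 3 UMIs. LRP3 and LRP4 were lower there, by −1.28 and −0.86. LRP1B at D6 over D4 in the hypoblast gate was −0.76 (−1.67 to 0.10).

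Secreted and other ligands of megalin and cubilin were higher in the hypoblast gate in 5 of 7 at D4 and 7 of 9 at D6. APOA1, a cubilin ligand, stood in that gate at 1621 UPM at D4 and 11926 at D6 (log2 D6 over D4 2.88, 2.87 to 2.89), APOM at 4.41 and 31.6, and TTR, the thyroxine carrier, at 3.14 and 13.6. APOB was higher in the hypoblast gate by log2 ratios of 6.34 at D4 and 6.08 at D6.

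Most enzymes of folate use differed between the gates in the other direction than FOLR1. Of 11 genes of folate uptake and use, 3 were higher and 8 lower in the hypoblast gate at D4, and 2 and 8 at D6. MTHFD1 stood at 32.7 against 90.2 UPM at D4 and 21.4 against 100.3 at D6. The hydrolase GGH was the one at least 2-fold higher, at 101 against 45.0 at D6. From D4 to D6 in the hypoblast gate, 2 of 10 were higher and 6 lower, with SHMT1 and TYMS at log2 ratios of −0.81 and −0.79.

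Cobalamin handling, in which cubilin serves uptake in the gut, showed no common direction, with 3 of 6 genes higher and 1 lower on each day. The lysosomal cobalamin exporter partners LMBRD1 and ABCD4 were higher, by log2 ratios of 1.33 and 0.74 at D4 and 1.30 and 0.69 at D6, and the transcobalamin receptor CD320 was lower at D6 than at D4 in the hypoblast gate, at 116 against 192 UPM. Of the iron and other nutrient genes, 5 of 8 were higher and 2 lower at D4 and 6 and 1 at D6. The iron exporter SLC40A1 stood at 35.1 against 0.761 UPM at D4, and HMOX1, the haem-degrading enzyme, at 59.5 in the hypoblast gate at D4 and 361 at D6.

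Marker lists of other cell types differed between the gates as well. Of the neural and kidney tubule markers only PAX6 reached 10 UPM, at 18.8 in the hypoblast gate at D4 and 42.9 at D6 against 0.311 and 0.641 in the embryonic gate, and the list summed to 22.5 and 47.8 against 0.865 and 1.48. Amnion markers summed to 90.3 and 117 in the hypoblast gate, most of it MSX2, and to 18.6 and 42.8 in the embryonic gate. They did not share 1 direction. Of the 3 at 10 UPM or more at D6, 2 were higher in the hypoblast gate and 1 lower. The lower one was TFAP2A, at 0.455 against 20.0 UPM at D6 and 0.544 against 7.73 at D4. Mesoderm and blood markers summed to 34.2 and 106, with MIXL1 at 27.6 and 84.0, and to 4.00 and 7.19 in the embryonic gate. Their part in the levels of the 6 genes was not tested.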

How the data were processed

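Only the 2 single-cell libraries were used; the 7 bisulfite libraries are not analysed here. The authors deposited UMI counts per gene and called cell, made with Cell Ranger 6.0.1 on hg38, with no normalization; the processing notes also name Seurat 4.0.1 and R 4.0.3, which had no part in these tables. Cells with 3430 to 27500 UMIs and at most 10% mitochondrial UMIs were kept, as the study's methods state, which left 9151 of 10943 cells at D4 and 10097 of 11483 at D6 (151712246 and 150320228 UMIs before filtering). No doublet caller was run, and the upper UMI limit and the gates stood in for one only in part. The hypoblast gate allows up to 5 UMIs of POU5F1 and the embryonic gate up to 2 of FN1. Mixed cells within these limits, and doublets within a lineage, can therefore remain in the gates. UMIs were summed over the cells of a gate and divided by the gate's total, per 1000000 (UPM). Levels have exact Poisson intervals, shares exact Clopper-Pearson intervals and ratios exact conditional binomial intervals, all at 95% and for counting error only. For the distance between genes, 0.5 UMIs were added to each sum. Thinning drew 3430 UMIs per cell without replacement, and simulated draws were compared with the exact expectation. Ratio intervals were run on simulated Poisson sums, the model they assume, which leaves out extra spread between cells. In the hypoblast gate, the variance of UMIs per cell over their mean ran from 1.03 (AMN) to 2.03 (DAB2) at D4. At D6 it ran from 1.31 (LRPAP1) to 1.81 (DAB2). Subsets under 50 cells were not described. Named beside the 6 genes were up to 3 genes per list with the largest ratio at 10 UPM or more, the 3 nearest by ratios, and the 3 best correlated over cells with a UMI in at least 5% of cells on both days. A few genes that this rule picks from the lists are not reported here. The genes, gates and lists were chosen with earlier results of these data known. Python 3.11.15, numpy 2.4.6, scipy 1.17.1, pandas 2.3.3 and matplotlib 3.10.9 were used. The alternatives were stricter gates, gates per 10000 UMIs, no cell filter, an upper limit of 20000 UMIs, means of cell shares, thinning, scaling without mitochondrial and ribosomal UMIs, median-of-ratios scaling, cells with no POU5F1 UMI, and a minimum of 1 UPM. The description of cells with LRP2, CUBN, AMN and DAB2 together, and of the spread of UMIs over AFP-positive cells, was added after seeing the data.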

Additional observations from a re-analysis of the deposited data

How the results depend on the processing

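No paired analysis was possible because each day has 1 library and no replicate number. For all 6 genes the hypoblast gate was the higher in every alternative run, with log2 ratios of 3.94 to 5.39 for CUBN and 2.75 to 3.57 for LRP2 at D4. From D4 to D6 in the hypoblast gate, LRP2 ranged from 1.71 to 2.06, CUBN from 2.39 to 3.05, AMN from 1.89 to 2.12, FOLR1 from 1.24 to 1.36, DAB2 from −0.63 to −0.36 and LRPAP1 from −0.33 to −0.23. In the embryonic gate, DAB2 at D6 over D4 turned to 0.12 (−0.30 to 0.55) when cells were thinned, where its main value was −0.20, and FOLR1 to −0.16 (−0.65 to 0.33) from 0.24 (−0.01 to 0.49). The number of genes at least 2-fold higher there was 1, and 0 with no filter on cells. Pairs with an interval above the product of their shares numbered 1 at D4, 3 with all UMIs and 0 with stricter gates. At D6 they numbered 5, and 3 with stricter gates, which hold 1596 and 1678 hypoblast-gate cells. The pairs lost at D6 with stricter gates were LRP2 with DAB2 and AMN with DAB2. With all UMIs, the pairs included LRP2 with FOLR1 on both days and CUBN with FOLR1 at D4. At a minimum of 1 UPM, 12.5% of genes at D4 and 16.9% at D6 were at least 2-fold lower in the hypoblast gate; from D4 to D6, 4.38% were higher and 2.66% lower in it, and 1.57% and 0.714% in the embryonic gate. The cause of these shifts was not tested. With 1 library per day, variation between cultures was not measured, and in cells thinned to the lowest depth kept, CUBN had a UMI in 17 hypoblast-gate cells at D4, which limits its pair counts.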
